A study of Mus musculus with 12 samples.

Results

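The 10 genes described here, C1qa, C1qb, C1qc, Cd163, Cd5l, Mrc1, Axl, Mertk, Adgre1 and Spic, are known from resident macrophages of the bone marrow. They were taken by name from the 37620 genes counted in every library, and all 10 passed the filter on low counts in each comparison. The libraries were made from bone endothelial cells (BECs) of c57/Bl6 mice, isolated fresh from the tibia by their surface endomucin, a sialoprotein of capillary and venous endothelium. The 12 libraries form 4 groups of 3, which are 2-week females, 2-week males, 65-week females and 65-week males, and no transgene or treatment is named for any of them. The study's methods describe capture with antibody-coated magnetic beads and state that the 3 samples of each set were chosen by RNA quality. The labels do not tell whether a library came from 1 mouse or from several, so a p-value here measures the spread between libraries, which may be technical.

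Resident marrow macrophages sit at the centre of erythroblastic islands and along the sinusoids, where they engulf the nuclei that red cell precursors expel, take up dying cells and old red cells, and return iron to the marrow. C1q, made mainly by macrophages, is the recognition unit of the classical complement pathway and also tags dying cells for uptake. Axl and Mertk are receptor tyrosine kinases that bind phosphatidylserine on dying cells through bridging proteins, Gas6 for both and protein S (Pros1) for Mertk. Several of these genes are not restricted to macrophages: Mrc1, Axl and Mertk are also known from endothelial cells, and Axl from stromal cells.

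Between 26044743 and 44569600 counts were assigned to genes per library, so that 3 counts correspond to between 0.0673 and 0.115 CPM (counts of a gene scaled by the library total). The endothelial identity of the labels did not hold equally at both ages. The summed level of 20 endothelial markers ranged from 3613 to 6626 CPM in the 6 libraries of 2 weeks and from 228 to 338 CPM in the 6 libraries of 65 weeks. Cdh5, the adhesion molecule of endothelial junctions, had a mean of 589.98 CPM in the 2-week females against 11.8 at 65 weeks, and of 737 CPM in the 2-week males against 12.7. Sex-linked genes matched the labels in the main, with 2 departures. Female 2-week replicate 3 held 25 counts over 4 Y-linked genes, where the other female libraries held 0 or 1, and male 65-week replicate 3 held 117 counts of Xist, where the other male libraries held between 0 and 3. Calls that change without 1 of these libraries are given with and without it. No batch or date is given in the labels.

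All 10 genes were well detected in every library, the lowest value being 47.8 CPM for Cd163 in male 2-week replicate 3. Their summed level was 2738 ± 176 CPM in 2-week females, 3967 ± 1196 in 2-week males, 4169.9 ± 694 in 65-week females and 4273 ± 852 in 65-week males (SD, n = 3 each). The 2-week female libraries agreed closely, the highest library of the 3 being between 1.01 and 1.40 times the lowest for each gene. The 2-week male libraries were far apart, with factors of 1.62 to 3.16, replicate 3 being the lowest of the 3 for all 10 genes. In 65-week males replicate 2 was the lowest for all 10 genes, with factors of 1.38 to 2.86, and in 65-week females the factors were 1.13 to 1.97. In the 2-week females, whose libraries lay close, the genes did not share 1 lowest library: it was replicate 3 for 6 genes and replicate 2 for 4.

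**Figure D1:**
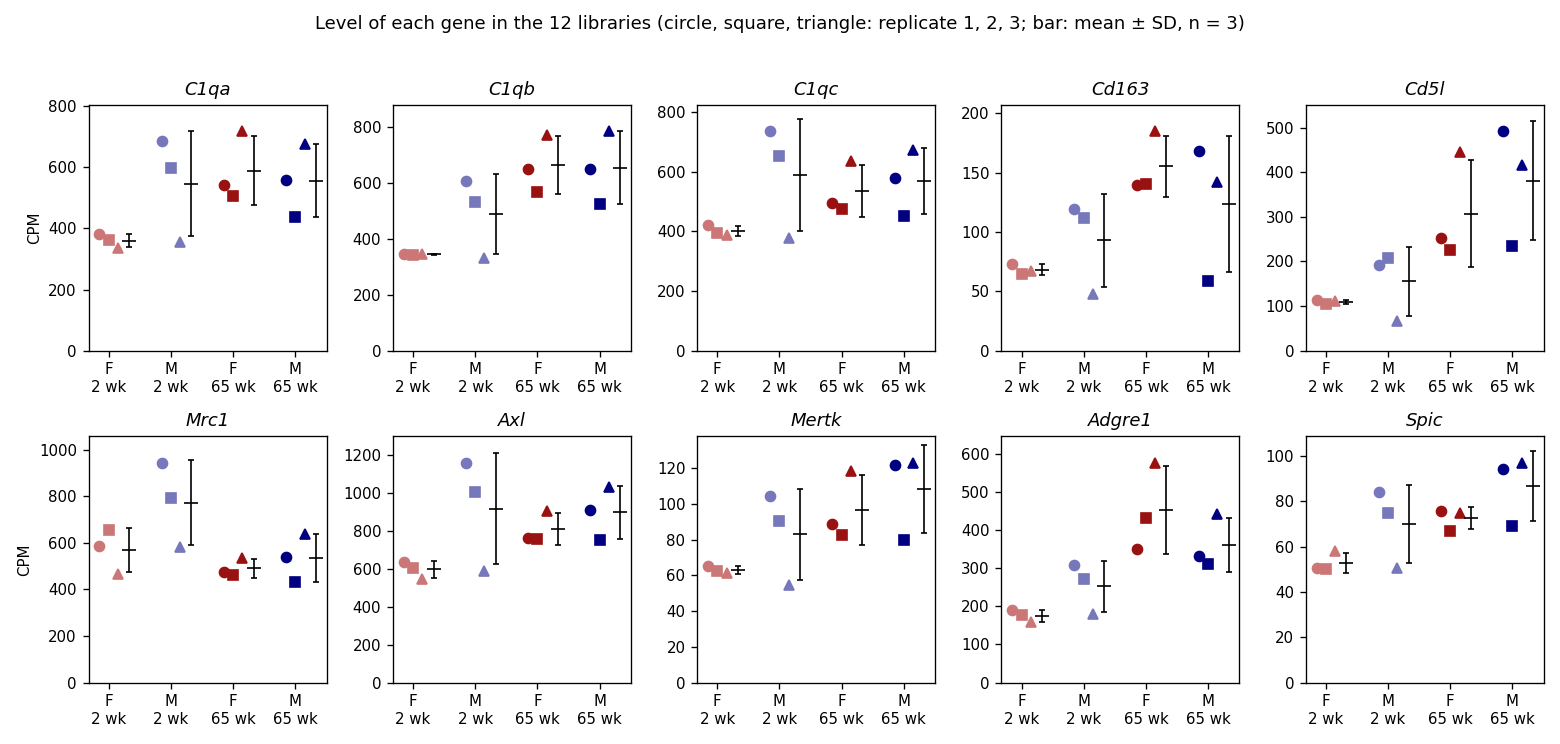
Level of each of the 10 genes in CPM (vertical axis, from 0, scaled for each gene) in the 4 groups (horizontal axis), with a circle, square and triangle for replicates 1, 2 and 3 and a bar for the mean ± SD (n = 3). Adgre1 and Cd5l stand higher at 65 weeks than at 2 weeks in all libraries of both sexes, while the triangle of the 2-week males is the lowest point of its group in all 10 panels.

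Differences were tested with edgeR's quasi-likelihood test on all genes that passed the filter, and a gene was called where its Benjamini-Hochberg adjusted p was under 0.05. In females 9 of the 10 genes were higher at 65 weeks than at 2 weeks, and the exception was Mrc1. This is to be read against a background in which 59.7% of the 15120 genes tested were called in females, 30.2% of the tested genes higher and 29.5% lower (4568 and 4462 genes, or 3668 and 5451 where libraries were scaled by their totals alone). The 3 libraries of 65 weeks all lay above the 3 libraries of 2 weeks for the same 9 genes, as they did for 27.6% of all genes. In males 2 of the 10 genes were called, Cd5l and Adgre1, both higher at 65 weeks and both without overlap, against a background of 55.5% called in either direction (27.0% higher and 28.5% lower) and 26.0% higher without overlap. The share of the 10 genes called in males was below that of all genes called in either direction. Both male calls were higher, and 2 of 10 is near the 27.0% of all genes called higher. The standard errors of the 10 genes ran from 0.203 to 0.445 in males and from 0.096 to 0.237 in females. The median log2 fold change over the 10 genes was 0.80 in females and 0.46 in males, against 0.0056 and 0.0080 over all genes. In bulk libraries fewer cells of a type and less RNA per cell cannot be told apart, and this holds for every difference below.

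**Figure D2:**
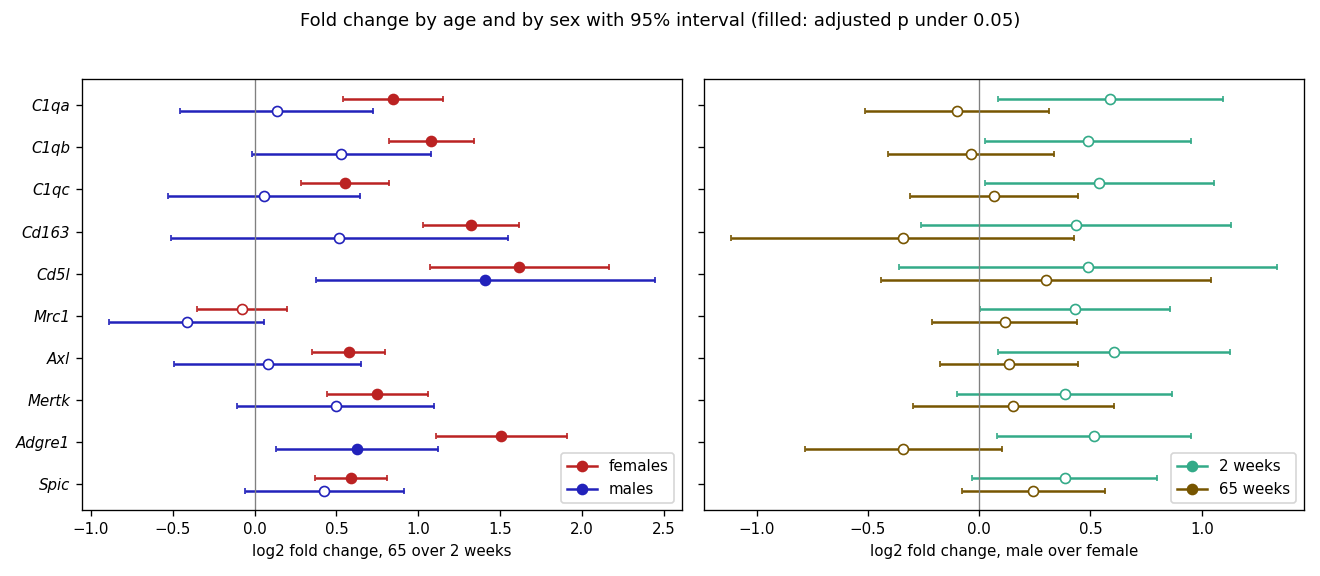
Log2 fold change with its 95% interval (horizontal axis) for each gene (vertical axis), by age in females and males (left) and by sex at 2 and 65 weeks (right), with filled points for an adjusted p under 0.05. By age 9 female and 2 male points are filled, with Mrc1 at -0.077 in females and -0.42 in males, and by sex none is filled, although all 10 points of 2 weeks lie above 0.

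The genes of the 3 C1q chains lie side by side on the minus strand of chromosome 4 (GRCm39), C1qb at chr4:136606009-136613511, C1qc at chr4:136616466-136620376 and C1qa at chr4:136623223-136626161, and 1 molecule of C1q holds all 3 chains. C1qa was counted at 380.3, 361 and 337 CPM in the 2-week females (replicates 1 to 3), 542, 507 and 719 in the 65-week females, 686, 599 and 355 in the 2-week males and 559.8, 436 and 675 in the 65-week males. C1qb was counted at 346, 342 and 343 CPM in the 2-week females, 649, 566 and 770.4 in the 65-week females, 604, 529 and 329.9 in the 2-week males and 649, 525 and 785 in the 65-week males. C1qc was counted at 420.3, 396 and 386 CPM in the 2-week females, 496, 476 and 636 in the 65-week females, 737, 652 and 377 in the 2-week males and 580.2, 452 and 672 in the 65-week males. The female ages were separate for all 3 genes, and the male ages overlapped for all 3.

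In females C1qb rose 2.11-fold with age (log2 fold change 1.08, SE 0.112, edgeR adjusted p = 9.25e-05), C1qa 1.80-fold (0.85, SE 0.132, adjusted p = 0.000846) and C1qc 1.47-fold (0.55, SE 0.116, adjusted p = 0.00395). In males none of the 3 was called, with log2 fold changes of 0.53 for C1qb (adjusted p = 0.0904), 0.14 for C1qa (adjusted p = 0.672) and 0.058 for C1qc (adjusted p = 0.859), the last of which turned to -0.052 where libraries were scaled by their totals alone. Without male 65-week replicate 3 C1qa was at -0.0074 and C1qc at -0.063 in males. C1qb passed the threshold in males when all 12 libraries were fitted in 1 model (log2 fold change 0.52, adjusted p = 0.0393). The order of the 3 age differences, C1qb above C1qa above C1qc, was the same in both sexes.

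The balance between the chains moved with age. The log2 ratio of C1qc to C1qb was 0.28, 0.21 and 0.17 in the 2-week females and 0.29, 0.30 and 0.19 in the 2-week males. At 65 weeks it was -0.39, -0.25 and -0.28 in females and -0.16, -0.22 and -0.22 in males, so that the 6 libraries of each age did not overlap and C1qc went from the more to the less counted of the pair. The log2 ratio of C1qc to C1qa moved less, from 0.16 ± 0.034 to -0.13 ± 0.044 in females and from 0.10 ± 0.018 to 0.032 ± 0.034 in males (SD, n = 3). These ratios compare each gene with another in the same library and were not tested.

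The stretch before the start of C1qb is shown because C1qb had the largest age difference of the 3 chains. It lies at chr4:136613512-136613761 (GRCm39, minus strand, letters from RefSeq's GRCm38.p6 table, found once in GRCm39), and the capitals mark the letters GAGGAA, the core of the PU box bound by the macrophage factor PU.1 and its relatives, here 30 bases before the start.

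C1qb: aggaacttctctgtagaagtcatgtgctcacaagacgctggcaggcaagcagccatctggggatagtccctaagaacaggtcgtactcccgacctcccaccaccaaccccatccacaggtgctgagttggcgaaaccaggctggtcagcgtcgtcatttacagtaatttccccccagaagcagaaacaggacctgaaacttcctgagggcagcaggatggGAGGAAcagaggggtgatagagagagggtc

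Cd163, Cd5l and Mrc1 are genes of uptake. Cd163 (chr6:124281606-124307560) encodes the receptor for haptoglobin bound to haemoglobin, and Cd5l (chr3:87265182-87278380) a secreted scavenger protein of tissue macrophages, also called AIM. Cd5l was counted at 114, 105 and 111 CPM in the 2-week females, 252, 226 and 445 in the 65-week females, 192, 208 and 65.9 in the 2-week males and 493, 234 and 417 in the 65-week males. The ages did not overlap in either sex. Cd5l rose 3.07-fold in females (log2 fold change 1.62, SE 0.237, adjusted p = 0.0006) and 2.66-fold in males (1.41, SE 0.445, adjusted p = 0.0282), the largest change of the 10 genes in both sexes. Without male 65-week replicate 1 the male difference was 1.14 on the log2 scale and was no longer called (adjusted p = 0.103).

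Cd163 was counted at 73.4, 64.2 and 66.9 CPM in the 2-week females and 140.0, 141 and 185 in the 65-week females, a rise of 2.50-fold (log2 fold change 1.32, SE 0.127, adjusted p = 6.03e-05). In males it was counted at 119, 112 and 47.8 CPM at 2 weeks and 169, 58.9 and 142 at 65 weeks. The male ages overlapped, since 1 library of each age was far below the other 2, and the difference was not called (log2 fold change 0.52, SE 0.443, adjusted p = 0.349). Cd163 had the widest interval of the 10 genes in males after Cd5l, from -0.51 to 1.55.

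The stretches before the starts of Cd5l and Cd163 are shown as the 2 scavenger genes with the largest rise in females, one with the PU box letters and one without. Cd5l is given at chr3:87264938-87265181 (plus strand) with the capitals TTCCTC, the PU box read on the minus strand, 66 bases before the start that RefSeq gives, which lies 6 bases inside the GENCODE gene, and Cd163 at chr6:124281360-124281605 (plus strand), in which no match was found.

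Cd5l: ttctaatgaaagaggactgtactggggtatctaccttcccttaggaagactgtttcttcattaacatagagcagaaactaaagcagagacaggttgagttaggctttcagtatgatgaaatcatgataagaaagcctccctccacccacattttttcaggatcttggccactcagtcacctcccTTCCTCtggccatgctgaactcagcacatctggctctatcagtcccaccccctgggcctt

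Cd163: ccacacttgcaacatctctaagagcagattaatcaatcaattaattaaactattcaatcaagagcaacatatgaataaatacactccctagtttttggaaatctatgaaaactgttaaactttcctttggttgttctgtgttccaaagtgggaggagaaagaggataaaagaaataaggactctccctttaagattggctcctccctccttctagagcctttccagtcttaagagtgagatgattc

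Promoter sequence was matched for 8 of the 10 genes, C1qa and Adgre1 being the others. The starts are those of RefSeq, which coincide with the GENCODE gene start for C1qb and lie inside the GENCODE gene for the other 7, by 4 to 171 bases and for Spic by 2075, so that the stretch of Spic lies within its gene as printed here. Over the 250 bases before the RefSeq start, read on both strands, GAGGAA was found in 5 of the 8 (C1qb, C1qc, Cd5l, Mrc1 and Axl) and in 23.3% of all 32851 promoters of the table. TGCTGA, the core of the site bound by Maf factors, was found in 3 of the 8 (C1qb, Cd5l and Spic) and in 16.1% of all promoters, and the AP-1 site TGANTCA in 0 of the 8 and in 6.75%. The last 3 letters of TGCTGA can be shared with the first 3 of TGANTCA. Mrc1 held GAGGAA at 3 places. The place nearest its RefSeq start, at 35 bases, lay within the GENCODE gene, since that start is 74 bases inside the gene. The GAGGAA of Axl, 130 bases before a start 171 bases inside the gene, lay within the gene too. A relation between these letters and the age differences was not tested.

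Mrc1 (chr2:14234151-14336926) encodes the mannose receptor, CD206, which takes up glycoproteins and is found on macrophages and on sinusoidal endothelium. It was counted at 586, 654 and 467 CPM in the 2-week females, 473, 461 and 537 in the 65-week females, 944, 795 and 582 in the 2-week males and 538, 434 and 640.0 in the 65-week males. The ages overlapped in both sexes. The log2 fold change was -0.077 in females (95% interval -0.35 to 0.20, adjusted p = 0.603) and -0.42 in males (-0.89 to 0.056, adjusted p = 0.117), and neither was called. Without female 2-week replicate 3, 1 of the libraries with counts from the other sex, Mrc1 was called lower in females (log2 fold change -0.26, adjusted p = 0.0489), so that all 10 genes were then called, against a background of 56.5% of all genes. Without male 2-week replicate 3 it was called lower in males (-0.60, adjusted p = 0.0341).

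The TAM receptors Axl (chr7:25456535-25488329) and Mertk (chr2:128540729-128645080) mediate the uptake of dying cells, Mertk chiefly in resting tissue and Axl more under inflammation. Axl was counted at 637, 604 and 548 CPM in the 2-week females, 765, 755 and 906 in the 65-week females, 1158, 1003 and 589 in the 2-week males and 909, 750.3 and 1033 in the 65-week males. Mertk was counted at 65.5, 62.3 and 61.2 CPM in the 2-week females, 88.5, 82.4 and 119 in the 65-week females, 104, 90.2 and 54.7 in the 2-week males and 122, 79.9 and 123 in the 65-week males. For both genes the female ages were separate and the male ages overlapped. In females Mertk rose 1.68-fold (log2 fold change 0.75, SE 0.133, adjusted p = 0.0017) and Axl 1.49-fold (0.57, SE 0.0972, adjusted p = 0.0013). In males the log2 fold changes were 0.49 for Mertk (adjusted p = 0.14) and 0.080 for Axl (adjusted p = 0.801), the latter -0.031 where libraries were scaled by their totals alone and -0.018 without male 65-week replicate 3.

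The other genes of this uptake pathway went mostly the other way. Of the TAM ligands and genes of apoptotic cell uptake, 4 of 20 tested rose and 11 fell in females, and 2 of 21 rose and 14 fell in males, with a median log2 fold change of -0.87 and -1.28. Stab2 and Stab1, scavenger receptors that bind phosphatidylserine and are also known from sinusoidal endothelium, fell, with log2 fold changes of -3.46 and -2.55 in females and -3.35 and -3.00 in males. The 2 bridging ligands, named after their values were seen, fell too: Gas6 in females from 559 ± 132 CPM at 2 weeks to 102 ± 2.31 at 65 weeks, and in males from 589 ± 40.5 to 159 ± 31.6 (SD, n = 3; adjusted p = 9.76e-06 and 6.32e-05), and Pros1 in females from 136 ± 30.0 CPM to 28.1 ± 4.44, and in males from 178 ± 15.6 to 24.7 ± 5.90 (adjusted p = 2.44e-05 and 1.43e-05). Tyro3, the remaining TAM receptor, was low at 2 weeks, at 3.61 ± 0.772 CPM in females and 3.82 ± 0.240 in males, and stood at 0.237 ± 0.208 and 0.0506 ± 0.0589 CPM at 65 weeks (adjusted p = 0.000476 and 6.85e-05). Among the TAM receptors, then, Axl and Mertk were higher at 65 weeks in females while Tyro3 and both ligands were lower. The stromal markers, of which cells Gas6 is also a product, and the endothelial markers fell over the same comparison (given below), and their part in the fall of the ligands was not tested.

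Adgre1 (chr17:57665573-57790527) encodes F4/80, an adhesion receptor that marks mouse macrophages, and also monocytes and eosinophils. It was counted at 189, 177 and 159 CPM in the 2-week females, 349, 431 and 576 in the 65-week females, 308, 271 and 178 in the 2-week males and 332, 309.9 and 443 in the 65-week males. The ages were separate in both sexes, though in males the highest library of 2 weeks, at 308 CPM, lay just below the lowest of 65 weeks, at 309.9. Adgre1 rose 2.84-fold in females (log2 fold change 1.51, SE 0.173, adjusted p = 0.000162) and 1.54-fold in males (0.63, SE 0.214, adjusted p = 0.0382). The male call was lost without any 1 of 4 libraries, 2-week replicates 2 and 3 and 65-week replicates 1 and 3 (adjusted p between 0.0761 and 0.0865), the last being the male library with Xist counts (log2 fold change 0.47 without it).

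Spic (chr10:88510629-88520960) encodes a transcription factor that is induced by heme and needed for the iron-recycling macrophages of spleen and marrow. It was counted at 50.7, 49.9 and 57.9 CPM in the 2-week females, 75.8, 66.8 and 74.9 in the 65-week females, 84.0, 74.7 and 50.6 in the 2-week males and 94.1, 68.9 and 97.0 in the 65-week males. The female ages were separate and the male ages overlapped. Spic rose in females (log2 fold change 0.59, SE 0.096, adjusted p = 0.00107), and in males the log2 fold change was 0.43 (adjusted p = 0.118).

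Of the genes of red cell clearance and heme-iron recycling, to which Spic and Cd163 belong by function, 10 of 18 tested rose and 1 fell in females, and 9 rose and 1 fell in males, with a median log2 fold change of 0.47 and 0.51. Slc11a1, a metal transporter of the phagosome, rose by 1.76 on the log2 scale in females (SE 0.115, adjusted p = 9.84e-06) and by 1.34 in males (SE 0.186, adjusted p = 0.000643). Bach1, the heme-sensing repressor, rose by 1.03 in females (SE 0.112, adjusted p = 0.000117) and by 0.70 in males (SE 0.0852, adjusted p = 0.000321). Hmox1, which breaks down heme, and Slc40a1, the iron exporter ferroportin, named after their values were seen, rose in females by 0.46 and 0.49 (adjusted p = 0.00254 and 0.00214) and were not called in males, at 0.51 and 0.55 (adjusted p = 0.111 and 0.0872). The erythroid markers summed to between 31947 and 60113 CPM at 2 weeks and between 33352 and 51140 CPM at 65 weeks, so red cell RNA was abundant at both ages.

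Other genes of resident macrophages did not move as 1 block. Of 24 tested, 13 rose and 6 fell in females and 8 rose and 8 fell in males, with a median log2 fold change of 0.59 and 0.33. These counts stand beside the shares of all genes given above, and the male ones, 8 of 24 in each direction, are near them (27.0% and 28.5%). Vsig4, a receptor for complement C3 fragments on resident macrophages, rose by 4.85 on the log2 scale in females (SE 0.337, adjusted p = 1.28e-05) and by 4.09 in males (SE 0.275, adjusted p = 1.53e-05). Fcgr4, a receptor for antibody, rose by 3.78 in females (SE 0.250, adjusted p = 1.04e-05) and by 2.90 in males (SE 0.250, adjusted p = 5.14e-05). Against these, Timd4, a phosphatidylserine receptor of long-lived resident macrophages that is named here after its values were seen, fell in females from 49.5 ± 3.43 CPM at 2 weeks to 22.05 ± 8.60 at 65 weeks, and in males from 65.4 ± 23.3 to 21.6 ± 3.47 (SD, n = 3; adjusted p = 0.0057 and 0.00259). Siglec1 and Vcam1, of the same list and also named after their values were seen, were not called in females. Their female log2 fold changes were 0.18 and -0.035 (edgeR adjusted p = 0.331 and 0.789). In males Siglec1 was not called (-0.40, adjusted p = 0.334) and Vcam1 was called lower (-0.71, adjusted p = 0.0365), with overlap between the ages. Clec4f, a marker of the macrophages of the liver, was at 0 in all 6 libraries of 65 weeks and at most at 0.0957 CPM at 2 weeks. Of the complement components, receptors and regulators, 9 of 19 tested rose and 6 fell in females and 7 rose and 7 fell in males. The male counts here too are not far from the shares of all genes. Among those whose log2 CPM averaged 3 or more, Itgax (2.52 and 2.35 on the log2 scale, adjusted p = 4.91e-06 and 6.74e-06), a chain of complement receptor 4, and C3ar1 (1.91 and 1.84, adjusted p = 2.61e-05 and 7.90e-05), the receptor for the C3a fragment, had the largest differences in females. Cr2, complement receptor 2 of B cells, lay under that level and had the larger log2 fold changes of 3.93 and 4.86 (adjusted p = 5.98e-06 and 4.05e-05). The complement component C2 lay under that level too and fell, with log2 fold changes of -2.73 and -2.38 (edgeR adjusted p = 0.000195 and 0.000832).

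**Figure D3:**
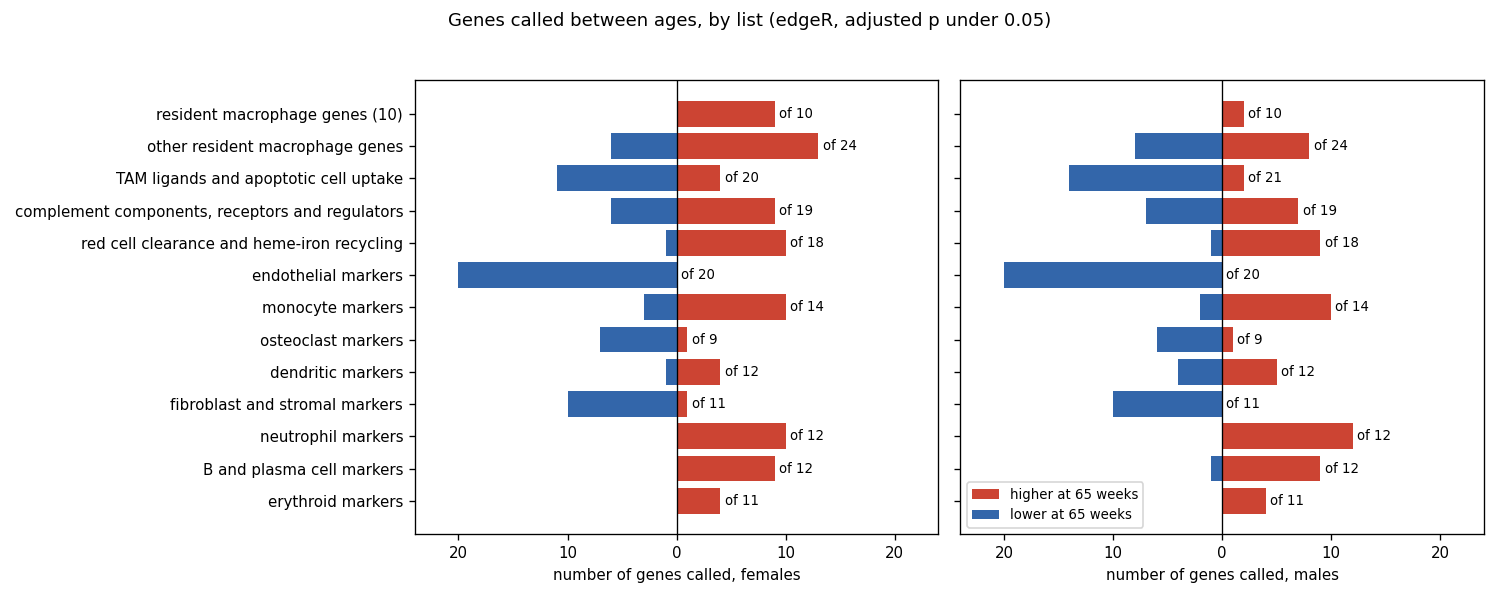
Number of genes called between ages (horizontal axis; right, higher at 65 weeks; left, lower) in each list (vertical axis) in females and males, with the number tested beside each bar. The 10 genes described here have 9 calls in females and 2 in males, all to the right, whereas the 20 endothelial markers all lie to the left in both sexes.

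Markers of other cell types moved over the same age comparisons. In females and males respectively, all 20 endothelial markers fell (log2 fold changes of -5.72 and -5.09 for Flt4 and -5.50 and -5.74 for Cdh5), as did 10 and 10 of 11 fibroblast and stromal markers (Col1a1 -6.71 and -6.41, Lum -5.54 and -4.35) and 7 and 6 of 9 osteoclast markers (Ctsk -4.43 and -3.53, Itgb3 -2.41 and -3.02), 1 stromal gene rising in females and 1 osteoclast gene in each sex. In the same order, 10 and 10 of 14 monocyte markers rose and 3 and 2 fell (Cd300e 5.69 and 4.68, Vcan -3.88 and -3.63), 10 and 12 of 12 neutrophil markers rose (Ltf 2.20 and 3.51, Ly6g 2.14 and 3.29), and 9 and 9 of 12 B and plasma cell markers rose, with 1 lower in males (Jchain 7.71 and 7.29, Ighm 5.05 and 5.07). Of 12 dendritic markers 4 and 5 rose and 1 and 4 fell (H2-Ab1 3.27 and 3.37, Itgax as above), and of 11 erythroid markers 4 and 4 rose (Car2 0.74 and 1.01, Epb42 0.67 and 0.79). Of all genes 30.2% were called higher in females and 27.0% in males. The erythroid counts in both sexes, and the female count of dendritic markers that rose, lie near these shares. The monocyte markers summed to between 3060 and 4569.8 CPM at 2 weeks and between 6989.7 and 9287 CPM at 65 weeks, and the stromal markers to between 11270.5 and 16418.5 and between 1025 and 1680 CPM. No marker of these 8 lists was at 0 in all libraries of a group. Some genes stand in more than 1 list, such as Itgb3, Itgax and Lrp1. Since these markers changed together with age, their part in the age differences of the 10 genes cannot be told apart from a change within macrophages, and Mrc1, Axl and Mertk, which endothelial cells also express, are to be read beside the fall of the endothelial markers.

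Between the sexes at 2 weeks 0 of the 10 genes were called by edgeR, against a background of 0.0332% of 15081 genes. DESeq2 called 0 of the 10 as well, against 412 of the 22283 genes it fitted. All 10 log2 fold changes of male over female lay above 0, between 0.38 for Mertk and 0.61 for Axl, with a median of 0.49 against 0.011 over all genes, and for 6 of them the unadjusted p was under 0.05, as it was for 17.8% of all genes. Those 6 were C1qa, C1qb, C1qc, Mrc1, Axl and Adgre1, and the adjusted p ranged from 0.248 to 0.47 over the 10 genes. None was without overlap, against 21.7% of all genes, since male replicate 3 lay within or below the range of the females while male replicates 1 and 2 lay above all 3 females for each of the 10 genes. In that replicate the endothelial markers summed to 6433 CPM and the monocyte markers to 3764 CPM, against 5214 to 6626 and 3060 to 3198 CPM in the other 2 male libraries, while the other resident macrophage genes summed to 4584 CPM against 5966 and 6894. The low library was thus low in macrophage genes and not in endothelial ones. Leaving it out raised the log2 fold changes but called none of the 10 genes, against a background of 0.0523%, which was 0.0719% without female replicate 2.

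At 65 weeks 0 of the 10 genes were called between the sexes by edgeR, against a background of 0.0420%, and for 0 of the 10 was the unadjusted p under 0.05. DESeq2 called 0 of the 10 too, against 357 of the 20350 genes it fitted. The log2 fold changes of male over female lay between -0.34 for Cd163 (95% interval -1.11 to 0.43) and 0.30 for Cd5l (-0.44 to 1.04), with 6 above 0 and 4 below, and no gene was without overlap, against 15.5% of all genes. The intervals of C1qa (-0.51 to 0.32) and Axl (-0.18 to 0.45) bound the difference more closely. Male replicate 2, the lowest of its group for all 10 genes, was also the lowest of its group in the other resident macrophage genes, at 4041 CPM against 4892 and 6030, and in the stromal markers, at 1078 CPM against 1462 and 1679.7. Male replicate 3, the library with Xist counts, was the highest of its group for 8 of the 10 genes. It held 2185 CPM of dendritic markers against 1061 and 1090.4 in the other 2. Its neutrophil markers were lower, at 18001 CPM against 26488 and 26284, as were its erythroid markers, at 33352 CPM against 49374 and 46870. Without this library 0 of the 10 genes were called between the sexes as well. The background moved with that library, from 0.0420% to 5.65% of all genes (830 of 14700) when it was left out, and to 0.102% without male replicate 2.

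The log2 fold change with age was lower in males than in females for all 10 genes, but the difference between the sexes was not called for any of them. In the model of all 12 libraries the interaction of sex and age lay between -0.88 for Adgre1 (95% interval -1.53 to -0.23) and -0.17 for Spic (-0.70 to 0.36). Here 0 of the 10 were called by edgeR, against a background of 0.00635%, with an unadjusted p under 0.05 for 2, Adgre1 (adjusted p = 0.275) and C1qa (adjusted p = 0.397). DESeq2 called 0 of the 10 too, against 362 of the 23039 genes it fitted. Without male 65-week replicate 3 the background was 4.66% of all genes (750 of 16089), and 0 of the 10 were called, with -0.99 for Adgre1 (adjusted p = 0.0871) and -0.81 for C1qa (adjusted p = 0.157). The age comparisons and the sex comparisons share libraries, so that the high level of 2-week males enters both the sex difference at 2 weeks and the smaller age difference of males. That 9 genes passed the threshold in females and 2 in males is therefore not a tested difference between the sexes.

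The levels of the 10 genes were compared with each other per kilobase of the canonical transcript (CPM per kb). C1qa was the highest in all 4 groups, with a median of 332 CPM per kb in 2-week females, 551 in 2-week males, 498 in 65-week females and 515 in 65-week males, and C1qc came next in each, with 214, 352, 268 and 313. The libraries of C1qa and C1qc overlapped in 2-week males. C1qb and Axl followed at 2 weeks, with 136 and 130.0 CPM per kb in females and 209 and 216 in males, and their libraries overlapped in both sexes. Mertk was the lowest in all 4 groups, with 13.4, 19.4, 19.0 and 26.2 CPM per kb, and Cd163 the next lowest, with 15.2, 25.4, 31.9 and 32.2. The 2 did not overlap in females of either age and overlapped in males of either age. Adgre1 and Mrc1 changed places with age: in 2-week females Mrc1 was at 107 and Adgre1 at 52.6 CPM per kb, and in 65-week females Mrc1 was at 86.3 and Adgre1 at 128, with no overlap at either age. In 65-week males the medians were 98.1 and 99.0 and the libraries overlapped. C1qa kept the first place when the length of all exons joined was used instead, whereas C1qb then ranked between 4 and 6, and Mertk was no longer the lowest in any group. C1qc then had rank 3 in 65-week males, below C1qa and Cd5l.

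To describe how the genes changed relative to a common macrophage gene, each was divided by Adgre1 in the same library, on the log2 scale after adding 0.5 CPM to both. Adgre1 also marks monocytes and eosinophils, and most monocyte markers rose over the same ages. The part of such cells in these ratios was not tested. In females the ratio was lower in all 3 libraries of 65 weeks than in all 3 of 2 weeks for 6 of 9 genes (C1qa, C1qc, Mrc1, Axl, Mertk and Spic), and in males for 4 of 9 (C1qa, C1qc, Mrc1 and Axl). The ages overlapped for C1qb, Cd163 and Cd5l in both sexes, and no ratio was higher at 65 weeks without overlap. The largest shift was that of Mrc1, from 1.69 to 0.14 in females and from 1.62 to 0.57 in males, differences of -1.55 and -1.05 on the log2 scale. Axl moved by -0.90 in females and by -0.52 in males, and Cd5l by 0.074 and 0.86. The genes thus differed in how far they kept pace with Adgre1, but the 9 ratios all share Adgre1, are not independent of each other and were not tested. Measured against Csf1r, the receptor for the growth factor of macrophages and monocytes, the ratio was lower at 65 weeks without overlap for 9 of 10 genes in females, Adgre1 included and Cd5l excepted, and for 4 of 10 in males, the 4 named above.

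**Figure D4:**
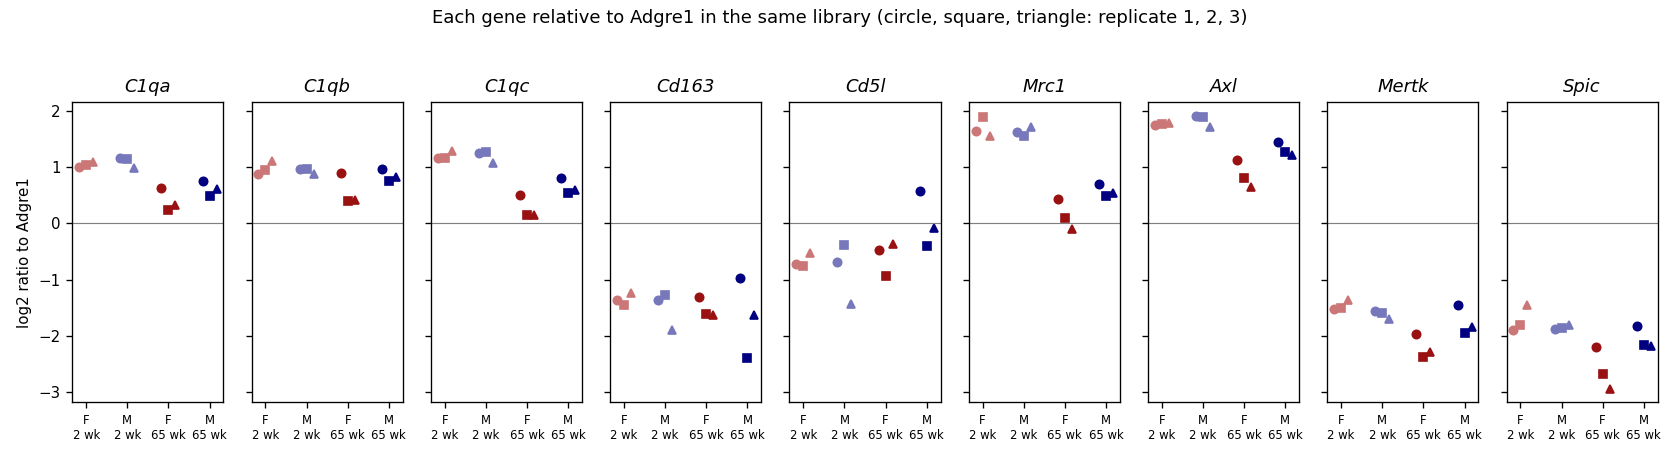
Log2 ratio of each gene to Adgre1 in the same library (vertical axis) in the 4 groups (horizontal axis), with a circle, square and triangle for replicates 1, 2 and 3. Mrc1 lies between 1.55 and 1.88 in the libraries of 2 weeks and at 0.70 or below in those of 65 weeks, whereas Cd5l and Cd163 overlap between the ages.

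The 10 genes varied together, as a description over 12 libraries that share the group structure. Over the 45 pairs Pearson's r of log2 CPM ranged from 0.014 (Mrc1 with Adgre1) to 0.99, with a median of 0.88. After the mean of each group was removed it ranged from 0.62 to 0.99, with a median of 0.90, so that Mrc1 varied with the others within a group although its age difference was apart. Among the 10032 genes compared, those most like C1qa over the 12 libraries were Acp2, Abcg3 and Pla2g15 (r = 0.98, 0.97 and 0.96), and those most like Axl were Slco2b1, Aph1b and Acp2 (0.97, 0.95 and 0.94). Those most like Cd163 were Gsap, Susd1 and Idua (0.95, 0.93 and 0.91). Acp2, Pla2g15 and Idua encode lysosomal enzymes. For Spic, looked up after the values were seen, the most alike over the 12 libraries were Prxl2b, Hmox1 and Ccr3 (r = 0.97, 0.96 and 0.96). Within groups they were Susd1, Hmox1 and Hpgds (0.97, 0.95 and 0.94).

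**Figure D5:**
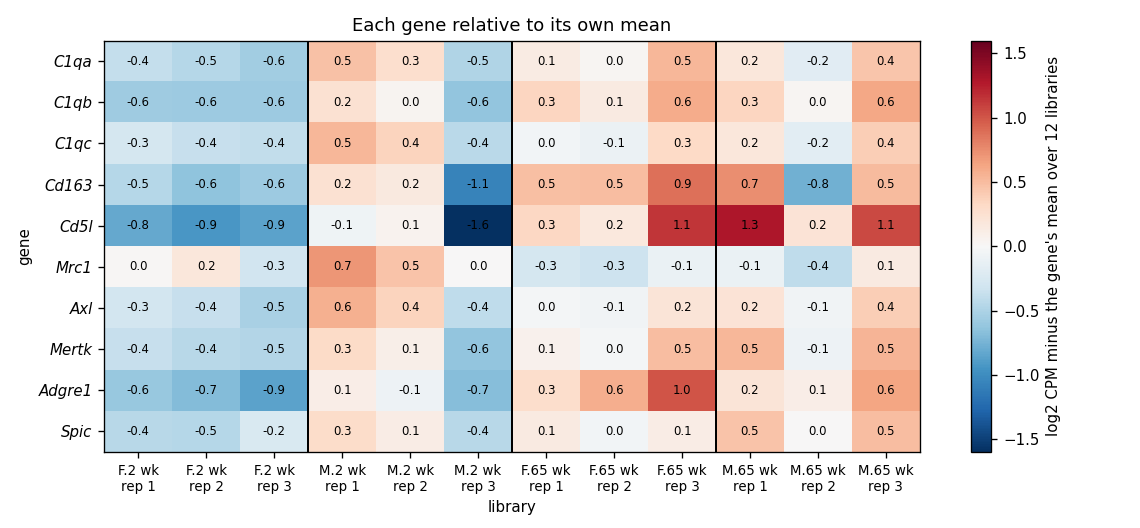
Log2 CPM of each gene minus its own mean over the 12 libraries (colour and printed value), with genes as rows and libraries as columns in their 4 groups. The columns of male replicate 3 at 2 weeks and male replicate 2 at 65 weeks are paler or bluer than those beside them, and the row of Mrc1 is the only one whose lowest value lies at 65 weeks.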

How the data were processed

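RNA of endomucin-selected bone endothelial cells was sequenced in 12 libraries as paired reads of 100 bases. The authors deposited 1 table of raw counts per Ensembl gene, with every column mapped to a library. GEO's processing notes name TopHat2, HTSeq and mm9, whereas the study's methods name STAR, featureCounts and GRCm39. Which of them made the counts, the strand setting and the handling of shared reads are not given in the sources used here. Labels call the molecule polyA RNA but name a total RNA kit. Gene symbols and GRCm39 coordinates came from GENCODE M39, which holds 31052 of the 37620 identifiers and 99.3% of the counts.

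From the deposited counts, CPM was computed on library totals. Differences were tested with edgeR 4.0.16 in R 4.3.3 (quasi-likelihood test, TMM scaling, a filter by filterByExpr at a minimum of 10 counts, Benjamini-Hochberg adjustment over all genes tested, threshold 0.05), with the libraries of the 2 groups compared in each fit and all 12 for the interaction. Standard errors and 95% intervals were derived from the F statistic and its degrees of freedom. The fitting scripts were tested on simulated data. Alternatives were DESeq2 1.42.0, RLE, upper quartile and library total scaling, no filter, a minimum count of 50, a threshold of 0.01, thinned counts, robust fits, a replicate block, 1 model of all 12 libraries and leaving out each library; another gene length was added after seeing the data. All 10 genes were named. From each list, up to 2 genes were named with the largest age difference in females (average log2 CPM of at least 3) that were also called in the same direction in males, and, for 1 gene of each role, the 3 genes with the highest Pearson correlation of log2 CPM (prior count 2); those of Mrc1 are not reported here. The 10 genes, the lists and the alternatives were chosen with earlier results of these data known. The lists were other resident macrophage genes, TAM ligands and apoptotic cell uptake, complement, red cell clearance, and endothelial, monocyte, osteoclast, dendritic, fibroblast and stromal, neutrophil, B and plasma cell and erythroid markers, of which only Ahsp was not matched.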

Additional observations from a re-analysis of the deposited data

How the results depend on the processing

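In females the 9 calls held under every alternative setting and with any 1 library left out, where 9 or 10 genes were called. In males the count of 2 was 1 with scaling by library totals only, 0 at a threshold of 0.01 and 1 with the replicate block, and 0 to 2 with 1 library left out (0 without 65-week replicate 1, 1 without 2-week replicate 2 or 65-week replicate 3). Without 2-week replicate 3 the count stayed at 2 but the calls changed. Adgre1 was lost (edgeR adjusted p = 0.083) and Mrc1 was called lower (log2 fold change -0.60, adjusted p = 0.0341). C1qa, C1qc and Axl then lay at -0.11, -0.19 and -0.17 and were not called. The count was 3 with all 12 libraries in 1 model, C1qb being added. The cause was not tested. Adgre1 lost its male call with library totals only (adjusted p = 0.0785) and with the block (adjusted p = 0.0556). With library totals only, C1qc was at -0.052 and Axl at -0.031 in males, and the median of all genes moved from near 0 to -0.13 in females and to -0.11 in males. The count of the 10 genes called between the sexes and in the interaction stayed at 0 throughout, although DESeq2 called 412 genes in all between the sexes at 2 weeks, 357 at 65 weeks and 362 in the interaction, against 5, 6 and 1. Of the list counts by age, those of other resident macrophage genes in males went from 8 and 8 to 5 higher and 4 lower at a threshold of 0.01, and erythroid markers higher from 4 to 1 or 2 in either sex under some settings; with all libraries kept, the rest that moved by over 1.5 times were counts of 2 or fewer genes. The labels do not tell whether libraries of the same number were paired. The correlation of same-numbered deviations from the group means ran from -0.36 to 0.14, which with 3 libraries a group cannot decide it. The block changed no call of the 10 genes other than that of Adgre1 in males.

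Over all alternatives, leaving out each library included, the male age difference ranged from -0.11 to 0.33 for C1qa, -0.19 to 0.25 for C1qc and -0.17 to 0.28 for Axl. The sex difference at 65 weeks ranged from -0.22 to 0.069 for C1qa, -0.15 to 0.097 for C1qb and -0.033 to 0.21 for C1qc. The interaction of Cd5l ranged from -0.58 to 0.15. With 1 library left out, the ratios to Adgre1 that were lower at 65 weeks numbered 6 to 8 in females and 4 to 7 in males (7 without 65-week replicate 1). Of the 3 genes most like C1qa, Cd163, Mrc1 and Axl, 1, 0, 1 and 1 were also among the 3 found on deviations within groups. With 3 libraries a group, the male intervals were wide: that of Cd163 ran from -0.51 to 1.55.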
